A study of Homo sapiens with 24 samples.

Results

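The H/ACA small nucleolar RNAs were described in ARP1, a human line of multiple myeloma, a cancer of antibody-secreting plasma cells. Their genes were taken as every gene of the deposited table whose symbol begins with SNORA, which gave 113 of 19158 genes. The tested cells were cultured for 24 h with LPA, which the labels write only as an abbreviation, at a stated 4 mg/mL, and the others for the same 24 h with the vehicle PBS. The unit of that dose is in doubt. Each treatment had 3 libraries of column-purified total RNA, and each library was read in 4 lanes that were averaged and counted as 1 replicate. Every library came from the same line, and the labels do not say whether the libraries of a treatment came from separate cultures, so p-values reflect only how far these libraries differ, which may be technical.

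An H/ACA small nucleolar RNA, or snoRNA, folds into hairpins followed by a hinge sequence, the H box, and by the letters ACA near its 3′ end. Most of them pair with ribosomal RNA and direct the change of a chosen uridine to pseudouridine, which the enzyme dyskerin carries out in a particle with 3 further core proteins. In human cells most are cut out of introns of host genes, many of which code for ribosomal proteins and translation factors. SNORA73A and SNORA73B belong to the few that are needed for cutting the ribosomal RNA precursor.

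The sequences below are those of genes on which the results turn, picked after their values were seen. Printed first are the pair with the highest reads and a pair from the host EIF4A2 with large decreases. A guide of 18S ribosomal RNA with a large decrease follows. The rest are members among the 10 highest in mean FPM that differed in the size of their change. All sequences are printed 5′ to 3′ as DNA letters of the RNA strand, from the GENCODE release 29 transcript with the same gene identifier. Capitals mark the last ACA within the final 8 bases and, where the central stretch of the sequence, equal in length to what lies before and after it, held a single match, the H box letters ANANNA.

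SNORA73A and SNORA73B lie on chromosome 1 and matched at 93.2% of aligned positions.
SNORA73A: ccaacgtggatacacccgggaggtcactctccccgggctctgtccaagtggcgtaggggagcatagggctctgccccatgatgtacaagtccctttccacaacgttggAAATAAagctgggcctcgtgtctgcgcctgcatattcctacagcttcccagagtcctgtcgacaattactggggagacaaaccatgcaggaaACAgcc
SNORA73B: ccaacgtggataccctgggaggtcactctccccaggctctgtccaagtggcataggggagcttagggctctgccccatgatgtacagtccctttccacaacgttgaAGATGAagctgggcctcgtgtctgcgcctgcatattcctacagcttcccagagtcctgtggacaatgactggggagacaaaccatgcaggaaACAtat

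SNORA63 and SNORA63B lie on chromosome 3 within EIF4A2 and matched at 71.9% of aligned positions. SNORA63 held 2 matches to the H box letters, so none is marked.
SNORA63: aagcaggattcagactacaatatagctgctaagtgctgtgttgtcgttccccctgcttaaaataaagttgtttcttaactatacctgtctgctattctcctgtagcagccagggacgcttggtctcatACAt
SNORA63B: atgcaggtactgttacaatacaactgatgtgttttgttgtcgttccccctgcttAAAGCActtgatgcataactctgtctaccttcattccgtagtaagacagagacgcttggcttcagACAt

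SNORA24 lies on chromosome 4 within the noncoding host SNHG8, and SNORA48 on chromosome 17 within the span of EIF4A1. SNORA23 lies on chromosome 11 within IPO7, and SNORA53 on chromosome 12 within SLC25A3. The last 2 sequences are longer than the usual member, and their H box letters had several matches.
SNORA24: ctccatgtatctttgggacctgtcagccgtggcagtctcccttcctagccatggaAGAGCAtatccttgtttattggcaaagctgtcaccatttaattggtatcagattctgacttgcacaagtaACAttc
SNORA48: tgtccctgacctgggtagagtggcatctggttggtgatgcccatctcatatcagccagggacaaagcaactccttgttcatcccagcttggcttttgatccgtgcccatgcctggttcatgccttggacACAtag
SNORA23: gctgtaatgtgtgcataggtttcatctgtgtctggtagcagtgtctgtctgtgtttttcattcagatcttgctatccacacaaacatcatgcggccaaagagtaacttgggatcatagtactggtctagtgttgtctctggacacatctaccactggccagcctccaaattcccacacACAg
SNORA53: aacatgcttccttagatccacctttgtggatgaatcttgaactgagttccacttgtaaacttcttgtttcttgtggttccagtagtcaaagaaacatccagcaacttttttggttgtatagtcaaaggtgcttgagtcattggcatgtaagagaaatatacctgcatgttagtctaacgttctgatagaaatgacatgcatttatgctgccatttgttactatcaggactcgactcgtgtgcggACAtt

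The annotated sequences carried the letters of their class. ACA stood exactly 3 bases from the 3′ end in 84 of the 113 SNORA sequences, or 74.3%, against 2.82% of 71 SNORD sequences, the C/D class that guides methylation of ribosomal RNA. Of the 21 SCARNA sequences, guides that reside in Cajal bodies and include both classes, 52.4% had it. ACA occurred anywhere in the last 8 bases of 92.9% of SNORA, 15.5% of SNORD and 66.7% of SCARNA sequences. ANANNA, searched on the RNA strand only and in the central stretch of each sequence, had a match in 95.6%, 21.1% and 85.7% of the SNORA, SNORD and SCARNA sequences.

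Levels are FPM, fragments scaled to the total of the library, the CPM unit. Library totals were 6941747 to 8740992 reads with LPA and 5498910 to 5615625 with PBS, so 1 read was worth 0.114 to 0.182 FPM. Plasma cell markers were present, though CD38 and MZB1 reached at most 8.33 and 5.04 FPM in any library. Of the 9 markers, 7 were higher with LPA, against 22.5% of all tested genes. On FPM rescaled between libraries 6 were higher, against 10% of all tested genes. T cell, monocyte and epithelial markers each summed, list by list, to at most 6.57 FPM in any library. The library LPA 3 stood apart from LPA 1 and LPA 2, as the chi-square of read counts over all genes was 2.39 and 2.81 times its degrees of freedom, against 1.35 between LPA 1 and LPA 2. PBS 2 stood apart further, at 3.66 from PBS 1 and 3.74 from PBS 3, against 1.33 between PBS 1 and PBS 3. Since reads are shares of a total, less snoRNA per cell and more of other RNA cannot be told apart, and neither can fewer cells with the RNA and less RNA per cell.

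As a class, the SNORA RNAs took up a smaller share of the reads with LPA. Their summed level was 4579, 4515 and 4217 FPM in LPA 1 to 3, against 7888, 5874 and 8569 FPM in PBS 1 to 3. Every LPA library lay below every PBS library, and the ratio of the means was 0.596, or 0.539 without PBS 2. In shares of all reads this was 0.422% to 0.458% with LPA and 0.587% to 0.857% with PBS. SNORA73A and SNORA73B held most of it, 71.1% to 72.8% of the SNORA sum with LPA and 64.8% to 66.2% with PBS. Over the 111 other members the sum was 1303, 1228 and 1217 FPM with LPA, against 2664, 2004 and 3020 FPM with PBS, a ratio of 0.488. The summed level of the 14 listed genes of the mitochondrial genome was likewise smaller in every LPA library than in every PBS library, at 24105, 24594 and 20338 FPM with LPA, against 29005, 37880 and 29417 FPM with PBS, although PBS 2, lowest of the PBS libraries in SNORA, was highest here. Its part in the result was not tested.

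Of the 113 members, 88 had 1 FPM or more in 3 or more libraries and were tested on log2(FPM + 1) with limma, together with all other such genes. Of these, 60 were lower with LPA at an adjusted p of 0.05, none was higher, also not at an unadjusted p under 0.05, and 28 did not pass. With edgeR's quasi-likelihood test on the recovered reads, 65 of 80 tested members were lower and 0 higher, and DESeq2 called 58 lower and 0 higher, leaving 39 members without an adjusted p. Over all 16274 tested genes limma called 4.49% lower and 22.5% higher, and edgeR called 10.2% of 15100 genes lower. The share with DESeq2 was not computed. The median log2 fold change of the 88 members was −0.91, against 0.13 for all tested genes. Fold changes ran from −1.70 for SNORA63B to 0.07 for SNORA22B, and 86 of the 88 were negative. Those with a positive value were SNORA22B and SNORA75, at 0.07 and 0.02, neither past the test and both slightly negative on the rescaled FPM described next.

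The median gene was shifted upward by 0.13 on the log2 scale in the LPA libraries, so the fit was repeated on FPM rescaled by median-of-ratios factors. There the median of all genes was 0.01 and that of the members −1.02, and again 60 members were lower and 0 higher, of which 57 were lower on both scales. On that scale 9.2% of all tested genes were lower and 10% higher. In 65 of the 88 tested members all LPA libraries lay below all PBS libraries, as in 7.42% of all tested genes. Of the members called lower, 44 had a mean with LPA at least 2-fold under the mean with PBS. Of the same members, 48 were lower in each of the 6 fits that left out 1 library. The share of all tested genes that met either criterion was not computed.

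The 25 members that were not tested had means of 0.307 to 0.859 FPM over the 6 libraries. With no filter on low values, 64 of the 113 members were lower, 0 higher and 49 did not pass, against 3.89% of all 19158 genes lower. The median over all 113 was then −0.75, and 106 had a negative value. SNORA58B alone passed the filter through its PBS libraries only: it had 0.342, 0.133 and 0 FPM with LPA, against 1.43, 1.63 and 2.01 FPM with PBS. It is among the 60 tested members called lower (limma adjusted p 0.000408). High PBS values alone let it into the test, so its call adds no support. A pair of members, SNORA15B-1 and SNORA15B-2, had identical sequences and identical reads in every lane, so their reads cannot be assigned to either gene.

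The median decrease had nearly the same size in the 3 LPA libraries, and the medians of the PBS libraries differed more among themselves. Relative to the PBS mean of each gene, the median over the 88 tested members was −0.86, −0.90 and −0.91 in LPA 1 to 3, against 0.05, −0.29 and 0.22 in PBS 1 to 3. PBS 2 was the lowest PBS library for 67 of the 88. Without LPA 3, 59 members were lower, and without PBS 2, 69 were. The share of all tested genes lower in these fits was not computed, so the counts are not compared with a background. The median without both of these libraries was −1.02. A chi-square of read counts did not follow the medians in this. It grows with the number of reads and does not measure the spread of single members. On the reads of SNORA genes alone, the chi-square was 2.17 to 4.68 times its degrees of freedom between LPA libraries. Between PBS libraries it was 1.32 to 2.57 times.

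**Figure D1:**
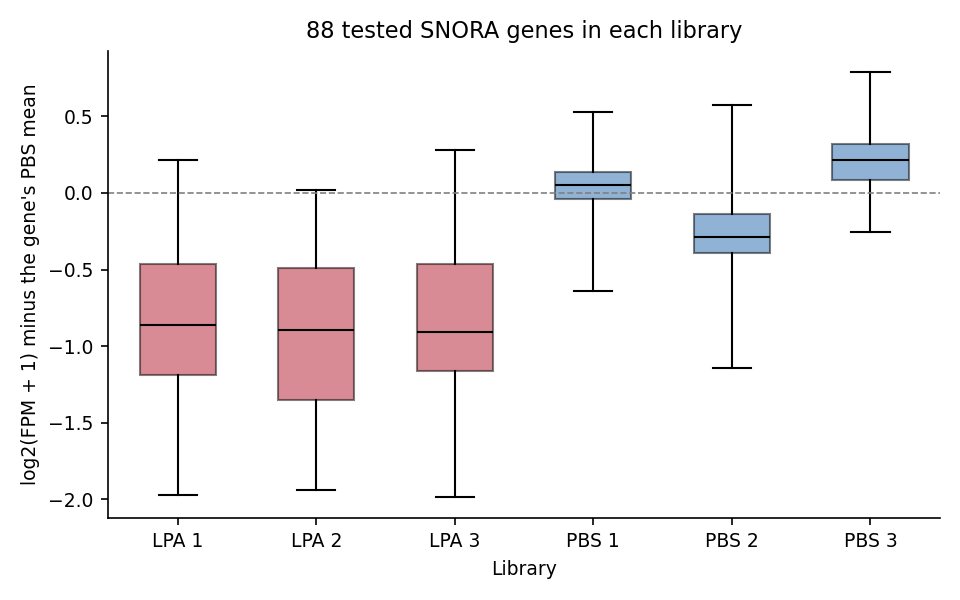
The 88 tested SNORA genes in each library, as log2(FPM + 1) minus the gene's mean over the PBS libraries. Boxes span the interquartile range with the median as a line, and whiskers reach the extremes. The medians of the LPA libraries lie between −0.91 and −0.86, and those of the PBS libraries between −0.29 and 0.22, with PBS 2 the lowest.

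SNORA73A and SNORA73B, the RNAs needed for early cuts of the ribosomal RNA precursor, led all members. They averaged 9374 and 10311 FPM per kilobase of annotated length over the 6 libraries. SNORA73A had 1623, 1657 and 1399 FPM with LPA, against 2478, 1832 and 2597 FPM with PBS. SNORA73B had 1653, 1631 and 1600 FPM with LPA, against 2746, 2038 and 2952 FPM with PBS. For both, the highest LPA library was below the lowest PBS library, PBS 2, and the PBS libraries were the more scattered. The log2 differences were −0.55 ± 0.17 (SE) for SNORA73A and −0.65 ± 0.16 for SNORA73B, with limma adjusted p of 0.0917 and 0.0514, so neither passed. Both passed edgeR (adjusted p 8.1e-05 and 8.5e-06), DESeq2 (0.00736 and 0.000311) and limma without PBS 2 (0.000989 and 2.1e-22). Neither passed limma on rescaled FPM (0.112 and 0.0663) or without any 1 of the other libraries. With 93.2% of positions alike and the counting rule for reads that match several genes not given, the split between them is uncertain.

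SNORA63, a guide of 28S ribosomal RNA, was next in level per length, with a mean of 3370 FPM per kilobase. It had 228, 197 and 212 FPM with LPA, against 701, 498 and 835 FPM with PBS. Every LPA library lay more than 2-fold under every PBS library, and the log2 fold change was −1.64 ± 0.22 (SE), adjusted p 0.00844. Its share of the SNORA sum was 4.36% to 5.02% with LPA and 8.47% to 9.74% with PBS. SNORA63B, from the same host gene, had 3.78, 5.11 and 5.61 FPM with LPA, against 18.7, 14.6 and 20.4 FPM with PBS. It had the lowest fold change of the tested members on log2(FPM + 1), −1.70 ± 0.16, adjusted p 4.2e-12. In edgeR SNORA6 and SNORA18 lay lower, at −2.18 and −2.11, against −2.05 for SNORA63B. The other tested members within EIF4A2, SNORA81 and SNORA4, were lower as well, with log2 fold changes of −1.05 and −1.002.

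SNORA53 and SNORA23 were also high but changed less. SNORA53 had 222, 224 and 203 FPM with LPA, against 285, 250 and 318 FPM with PBS, a log2 fold change of −0.39 ± 0.07 and an adjusted p of 3.3e-05. SNORA23 had 134, 135 and 139 FPM with LPA, against 196, 166 and 198 FPM with PBS, a log2 fold change of −0.45 ± 0.07 and an adjusted p of 6.0e-07. In neither did the groups overlap. On rescaled FPM SNORA53 no longer passed (adjusted p 0.0820), nor with 1 prior variance for all genes (0.0607), and SNORA23 passed on rescaled FPM (0.000732).

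SNORA74A, a guide of 28S ribosomal RNA, and its relative SNORA74B stood near these in size. SNORA74A had 37.7, 36.1 and 38.2 FPM with LPA, against 54.8, 40.6 and 53.5 FPM with PBS, a log2 fold change of −0.39 ± 0.10 and an adjusted p of 0.00158, which became 0.0859 with 1 prior variance for all genes. SNORA74B had 75.6, 82.8 and 62.2 FPM with LPA, against 117, 75.4 and 126 FPM with PBS. Its groups overlapped through PBS 2, and its difference of −0.50 ± 0.25 did not pass (adjusted p 0.245), whereas it did without PBS 2 (−0.73, adjusted p 3.8e-06) and in edgeR (0.00165). It did not pass with DESeq2 (0.127), on rescaled FPM (0.2499) or without any 1 of the other libraries (0.301 to 0.484).

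SNORA48 had 44.5, 38.7 and 49.4 FPM with LPA, against 118, 85.2 and 126 FPM with PBS. That was a log2 fold change of −1.28 ± 0.16 with an adjusted p of 0.00122, and the groups did not overlap. SNORA67, within the same host span, had a log2 fold change of −1.45 ± 0.24 (adjusted p 0.00758). SNORA70, a guide of 18S ribosomal RNA, had 53.5, 44.5 and 52.3 FPM with LPA, against 83.9, 65.6 and 103 FPM with PBS. Its log2 fold change was −0.72 ± 0.17 (adjusted p 0.0204), and it missed the threshold on rescaled FPM (0.0701), without LPA 3 (0.0940) and without PBS 1 (0.0958).

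**Figure D2:**
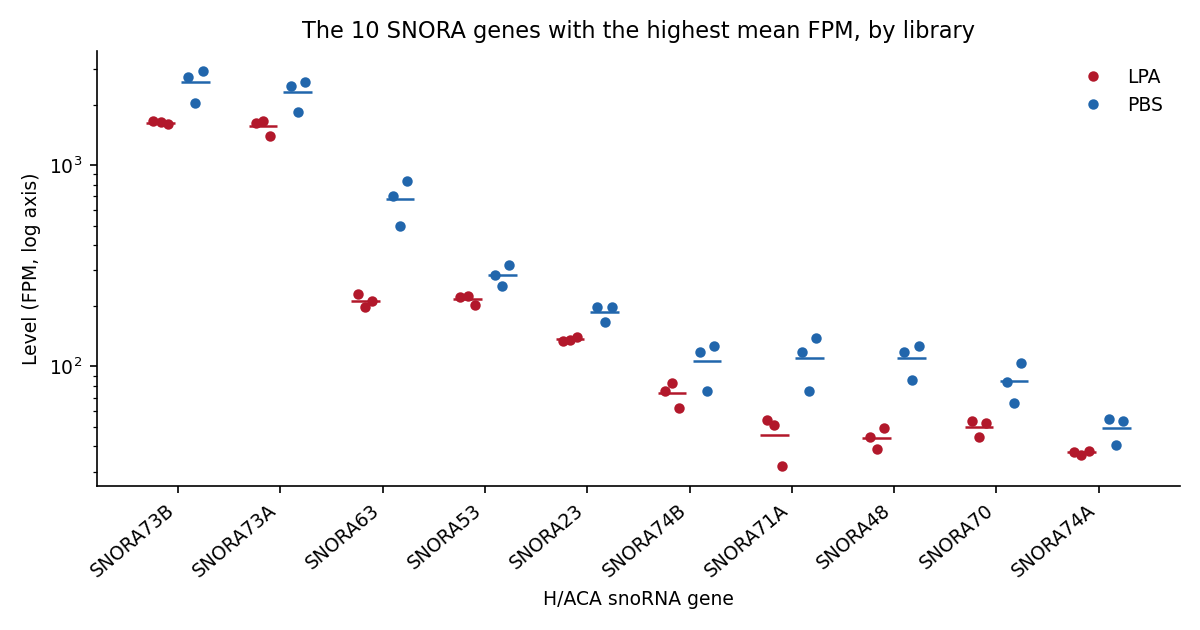
Level in each library of the 10 SNORA genes with the highest mean FPM, on a log axis, LPA libraries left of PBS libraries for each gene. Points are libraries and lines are means of 3 libraries. The LPA points lie below the PBS points for each gene except SNORA74B, where PBS 2 falls among them, and the gap is widest for SNORA63.

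The guides of 18S ribosomal RNA on the list were mostly lower. All 10 were tested and 8 were lower, against 4.49% of all tested genes, with a median log2 fold change of −0.88. On rescaled FPM 6 of the 10 were lower. SNORA24 had 6.87, 4.43 and 4.90 FPM with LPA, against 21.0, 13.8 and 21.8 FPM with PBS, and its log2 fold change was −1.63 ± 0.16, adjusted p 2.4e-10. Its near copy SNORA24B, 93.9% identical and much lower in level, had 1.15, 0.401 and 1.30 FPM with LPA, against 2.14, 0.905 and 1.09 FPM with PBS, and did not pass (−0.28, adjusted p 0.473). The groups of SNORA24 lay far apart and those of SNORA24B overlapped.

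SNORA71A to SNORA71D, 18S guides from the host SNHG17, spread over a wide range of fold changes. SNORA71A had 53.9, 51.3 and 31.8 FPM with LPA, against 117, 75.8 and 138 FPM with PBS, a difference of −1.25 ± 0.34 that did not pass (adjusted p 0.0654) although the groups did not overlap. SNORA71C was lower, at −1.52 ± 0.33 (adjusted p 0.0223, and 0.0546 on rescaled FPM), SNORA71D at −1.19, and SNORA71B, annotated at 272 nt and with overlapping groups, at −0.64 (adjusted p 0.0308). SNORA71B did not pass with DESeq2 (0.0616) or without LPA 2, PBS 1 or PBS 3 (0.232, 0.0717 and 0.206), nor SNORA71C without LPA 2 (0.0902). SNORA71A, SNORA71C and SNORA71D matched one another at 83.1% to 86.6% of positions. The 18S guides SNORA28, SNORA13 and SNORA44 were lower, at −0.84, −0.75 and −0.93, of which SNORA44 did not pass without LPA 1 (adjusted p 0.0637). SNORA66 did not pass, with 2.29, 1.48 and 1.005 FPM under LPA and 2.32, 2.35 and 1.99 FPM under PBS (−0.34, adjusted p 0.310).

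Of the 11 guides of 28S ribosomal RNA on the list, all were tested and 10 were lower on both scales, against 4.49% of all tested genes and 9.2% on rescaled FPM, with a median log2 fold change of −1.23. Beside SNORA63 and SNORA74A these were SNORA6, SNORA7A, SNORA7B, SNORA21, SNORA33, SNORA64, SNORA65 and SNORA68. SNORA68 had 3.77, 2.01 and 4.89 FPM with LPA, against 10.5, 9.95 and 11.3 FPM with PBS (−1.40 ± 0.19, adjusted p 1.9e-07). SNORA6, which lies within RPSA, had 1.03, 0.405 and 1.58 FPM with LPA, against 3.74, 3.98 and 4.74 FPM with PBS (−1.40 ± 0.24, adjusted p 8.0e-06). Neither pair of groups overlapped. SNORA7A and SNORA7B, 98.6% identical and within RPL32 and RPL32P3, were lower at −1.29 and −1.12, and reads from them can be hard to assign. SNORA52 did not pass, with 16.3, 8.998 and 13.8 FPM under LPA and 39.5, 20.3 and 45.1 FPM under PBS (−1.32 ± 0.41, adjusted p 0.0908), while edgeR called it lower (3.9e-05).

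Other members among the lowest fold changes were SNORA18 within TAF1D and SNORA31B within TPT1. SNORA18 had 3.21, 2.42 and 3.16 FPM with LPA, against 10.9, 6.50 and 17.3 FPM with PBS, a log2 fold change of −1.59 ± 0.24 (adjusted p 4.4e-05). SNORA31B was lower at −1.26. At the other end of the members called lower with a mean of at least 5 FPM stood SNORA12, with 26.3, 22.2 and 23.3 FPM under LPA and 29.01, 28.4 and 33.8 FPM under PBS. Its groups did not overlap, and its log2 fold change was −0.33 ± 0.11 (adjusted p 0.0142). It did not pass without LPA 2, LPA 3 or PBS 3 (adjusted p 0.0812, 0.0509 and 0.122).

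The size of the change was larger for members with more reads on the log2(FPM + 1) scale. When the 88 members were split in 3 classes by their mean over all 6 libraries, the median log2 fold change was −0.54 in the low class (0.924 to 3.38 FPM), −0.91 in the middle class (3.56 to 11.2 FPM) and −1.13 in the high class (11.4 to 2103 FPM). Lower with LPA were 10 of 29, 27 of 29 and 23 of 30 members, against 4.49% of all tested genes. The added 1 FPM shrinks the fold change of low genes, and with 0.25 FPM added the medians were −0.74, −0.997 and −1.18. With 4 FPM added they were −0.28, −0.63 and −0.97. In edgeR, which adds no such constant to the fit, they were −0.998, −1.21 and −1.36, with 21, 29 and 30 members. Across members, Spearman's rho between mean FPM and log2 fold change was −0.36 with limma (88 members), −0.09 with 0.25 FPM added, and −0.01 with edgeR (80 members). The members share the same 6 libraries, so these values only describe them. The median SE was 0.25, 0.19 and 0.16 from the low to the high class.

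**Figure D3:**
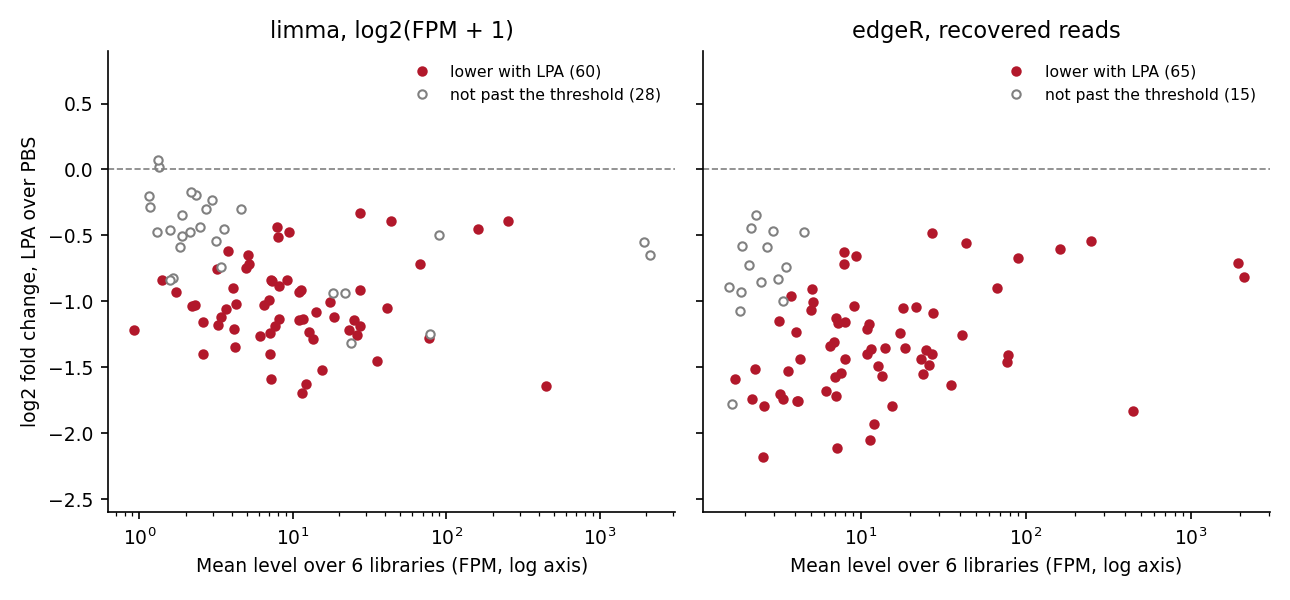
log2 fold change, LPA over PBS, against the mean level over the 6 libraries (log axis) for each tested SNORA gene, by limma on log2(FPM + 1) at left and by edgeR on recovered reads at right. Filled points were lower with LPA, 60 at left and 65 at right, and open points did not pass. At left the values approach 0 at the low end, which they do less at right, and the highest pair, SNORA73A and SNORA73B, lies above most of the rest in both.

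Among members with many reads, the long ones changed less than the short ones. The split by length and its limits were chosen after the values were seen and carry no test. Of the members with a mean of at least 20 FPM, the 7 longer than 170 nt had a median log2 fold change of −0.50, from −1.05 for SNORA81 to −0.39 for SNORA74A, and 4 were lower. The 13 of at most 150 nt had a median of −1.21, from −1.64 for SNORA63 to −0.33 for SNORA12, and 10 were lower. Of all tested genes, of any length or level, 4.49% were lower. Spearman's rho between annotated length and log2 fold change was 0.34 over the 88 members and 0.40 with edgeR over 80. Other listed genes of over 100 and up to 150 nt, 56 in number, had a median log2 fold change of −0.39 and 16 were lower, against −0.93 and 53 lower for the 76 SNORA genes of that length. The 26 other genes of over 150 and up to 210 nt had a median of −0.65, with 4 lower and 4 higher, against −0.55 and 5 lower for 9 SNORA genes. The 499 other genes of over 210 and up to 1000 nt had a median of 0.11, with 16 lower and 57 higher. The part of fragment length or RNA size selection in the result was not tested.

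**Figure D4:**
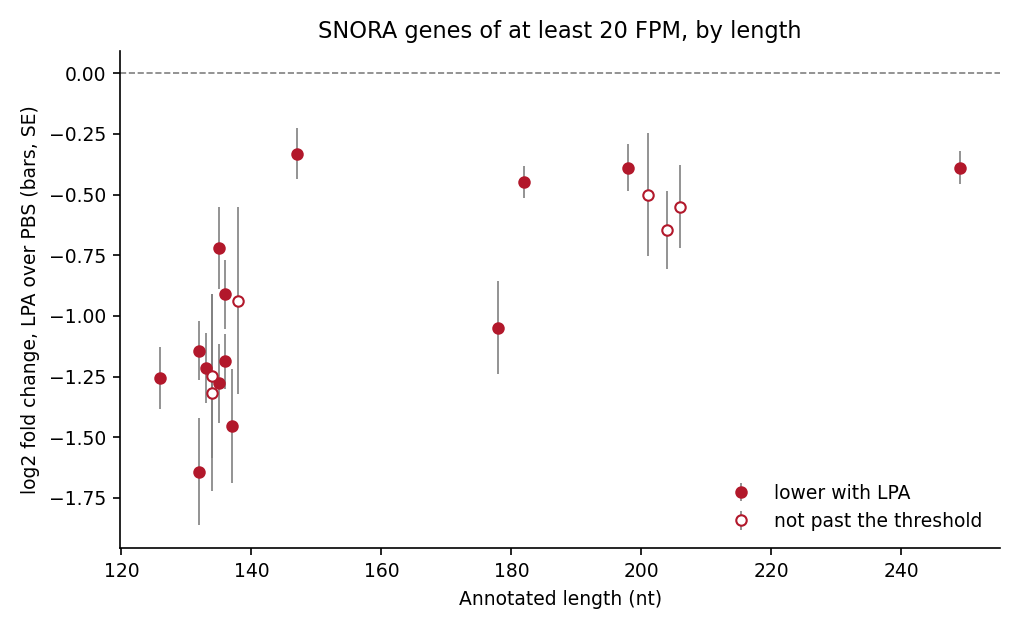
log2 fold change with its SE, LPA over PBS, against annotated length for the 20 SNORA genes with a mean of at least 20 FPM. Filled points were lower with LPA and open points did not pass. The 7 genes over 170 nt lie at −0.65 to −0.39, except SNORA81 at −1.05, and most of the 13 genes of at most 150 nt lie below −0.90.

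Some other small RNAs of the table were lower with LPA, and many of those tested did not pass with limma. Beside the 4.49% of all tested genes that were lower, of 71 SNORD genes 28 were tested, 10 were lower and 0 higher, with a median log2 fold change of −0.55. The SNORD and SCARNA genes named here were looked up after values were seen. SNORD3A, a C/D RNA needed for cutting the ribosomal RNA precursor, held most of the SNORD sum, with 2641, 2252 and 2792 FPM with LPA, against 4287, 2806 and 4734 FPM with PBS, and did not pass (−0.59 ± 0.24, adjusted p 0.168). Its groups did not overlap. SNORD118, which takes part in ribosomal RNA processing, was lower at −1.06 ± 0.16 (adjusted p 6.7e-07), and SNORD33, a methylation guide, at −1.39 ± 0.21 (adjusted p 5.1e-06). Of 21 SCARNA genes 18 were tested, 10 were lower and 0 higher, with a median of −0.53. With edgeR 15 of 18 tested SNORD genes and 14 of 17 tested SCARNA genes were lower. The edgeR count for SNORA was 65 of 80, and 10.2% of all genes tested with edgeR were lower. SCARNA13 was lower at −0.80 ± 0.07 (adjusted p 1.8e-12). In each of the SNORD and SCARNA classes 1 gene was higher by limma at an unadjusted p under 0.05, and edgeR and DESeq2 called 0 higher. The summed levels of SNORD and SCARNA genes had ratios of 0.652 and 0.758, LPA over PBS, beside 0.596 for SNORA.

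On the list of other short noncoding RNAs 5 of 19 tested genes were lower by limma, against 4.49% of all tested genes, and 0 were higher by limma, also at an unadjusted p under 0.05, by edgeR or by DESeq2. RNU5A-1, a U5 spliceosomal RNA, had 77.2, 90.1 and 62.2 FPM with LPA, against 213, 150 and 240 FPM with PBS, and was lower (−1.37 ± 0.25, adjusted p 0.0210). RPPH1, the RNA of ribonuclease P, was lower by a small amount, −0.16 ± 0.03 (adjusted p 7.4e-05). The spliceosomal RNAs RNU1-1, RNU4-2, RNU4-1 and RNU2-1, picked after values were seen, had log2 fold changes of −0.90, −0.82, −0.71 and −0.46. None of these passed limma (adjusted p 0.0707, 0.0556, 0.0861 and 0.127). In each of them all LPA libraries lay below all PBS libraries, as in 7.42% of all tested genes. RN7SL1 and RN7SK, RNAs of the signal recognition particle and of transcription elongation control, did not pass, with ratios of 0.862 and 0.837. RMRP, the RNA of ribonuclease MRP, had 747, 573 and 1342 FPM with LPA and 694, 727 and 763 FPM with PBS and did not pass. Its log2 fold change was 0.19, and RNY4, at 0.11, was the only other tested gene of the list with a positive value. The median of the list was −0.26. The part of RNA recovery or library preparation, which could act on short RNAs as a group, was not tested.

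Genes of the protein partners of the SNORA RNAs held 0 members lower with LPA by limma, also at an unadjusted p under 0.05, and 0 by edgeR and DESeq2. Only 4.49% of all tested genes were lower by limma, so 0 of 22 was near that background. Among the 4 core proteins, DKC1, the pseudouridine synthase dyskerin, had 141, 138 and 142 FPM with LPA, against 112, 111 and 112 FPM with PBS, and was higher (0.33 ± 0.07, adjusted p 0.000120). NHP2 was higher at 0.60 ± 0.09 (adjusted p 2.9e-07) and GAR1 at 0.37 ± 0.12 (adjusted p 0.0161), while NOP10 did not pass (0.15, adjusted p 0.335). On rescaled FPM DKC1 and NHP2 were higher and GAR1 was not. Of 8 genes listed as assembly factors or nucleolar partners, 5 were higher, NOLC1, RUVBL1, RUVBL2, TCOF1 and RPAP3. Of these, RPAP3 was not higher on rescaled FPM. NOLC1, a nucleolar phosphoprotein that binds snoRNA particles, had the largest value, 0.58 ± 0.06 (adjusted p 3.2e-10). NAF1, SHQ1 and PIH1D1 did not pass.

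Of the 7 factors that trim or mature H/ACA RNAs, EXOSC3, an exosome subunit, was higher (0.40 ± 0.11, adjusted p 0.00319), and DBR1, PARN, TENT4B, TOE1, EXOSC10 and TGS1 did not pass. TERT, WRAP53 and COIL, of telomerase and the Cajal body, did not pass. In all, 9 of the 22 protein genes were higher and 0 lower, and 7 were higher on rescaled FPM, against 22.5% and 10% of all tested genes.

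Host genes of the SNORA RNAs were read beside their members. By GENCODE release 29, 111 of the 113 members lie within a host gene on the same strand, 68 in introns only and 43 overlapping an exon of some host transcript, so that reads of a host transcript and of the snoRNA cannot always be told apart. The 111 lie in 81 different hosts. Of the 78 hosts tested, 4 were lower, 42 higher and 32 did not pass, with a median log2 fold change of 0.18. On rescaled FPM 8 were lower and 14 higher. Of all tested genes 4.49% were lower and 22.5% higher, and on rescaled FPM 9.2% and 10%, so the count of lower hosts was near that background. In the 82 pairs with both tested, the member had the lower fold change in 81, the exception being SNORA24B within PARP16. The median of member minus host was −1.08. Of the 57 pairs in which the member was lower, the host was higher in 26, not past the threshold in 28 and lower in 3. Across the 82 pairs Spearman's rho between the fold changes was 0.17.

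Of the 55 tested members within introns only, 34 were lower, with a median log2 fold change of −0.76. Of the 31 overlapping an exon 26 were lower, with a median of −1.06, against 4.49% of all tested genes lower. EIF4A2, a helicase of translation initiation that hosts SNORA63, had 399, 389 and 419 FPM with LPA, against 420, 438 and 437 FPM with PBS, and did not pass (−0.10 ± 0.05, adjusted p 0.141), though it was lower on rescaled FPM. TAF1D, a factor of RNA polymerase I, did not pass (−0.05) and was lower on rescaled FPM, and its members SNORA18, SNORA40 and SNORA8 had fold changes of −1.59, −1.25 and −0.84. SNHG8, the host of SNORA24, was lower at −0.26 ± 0.08 (adjusted p 0.00833), a much smaller value than that of its snoRNA.

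RCC1, the exchange factor of the nuclear GTPase Ran, whose span holds SNORA73A and SNORA73B, had 50.1, 55.2 and 55.5 FPM with LPA, against 36.0, 38.0 and 35.1 FPM with PBS, and was higher (0.55 ± 0.09). SNHG3, a noncoding gene over the same region, looked up after the values were seen, was higher as well (0.29 ± 0.06, adjusted p 0.000522). IPO7 and SLC25A3, hosts of SNORA23 and SNORA53, were higher at 0.22 each, and EIF4A1, looked up afterwards for SNORA48 and SNORA67, at 0.21; these 3 were not higher on rescaled FPM. ATP6V0E1, a proton pump subunit that hosts SNORA74B, was higher at 0.36. RPL10, RPL32 and TPT1, hosts of SNORA70, SNORA7A and SNORA31B, were higher at 0.18, 0.23 and 0.22, and not on rescaled FPM. CWF19L1 and SNHG17, hosts of SNORA12 and of the SNORA71 genes, were higher at 0.30 and 0.20 and not on rescaled FPM. The identifier of MATR3 that holds SNORA74A did not pass (−0.06). Of 14 tested hosts that code for ribosomal proteins, 10 were higher by limma, against 22.5% of all tested genes. None of the 14 was lower by limma, also at an unadjusted p under 0.05, by edgeR or by DESeq2. By limma 4.49% of all tested genes were lower, so 0 of 14 was near that background.

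**Figure D5:**
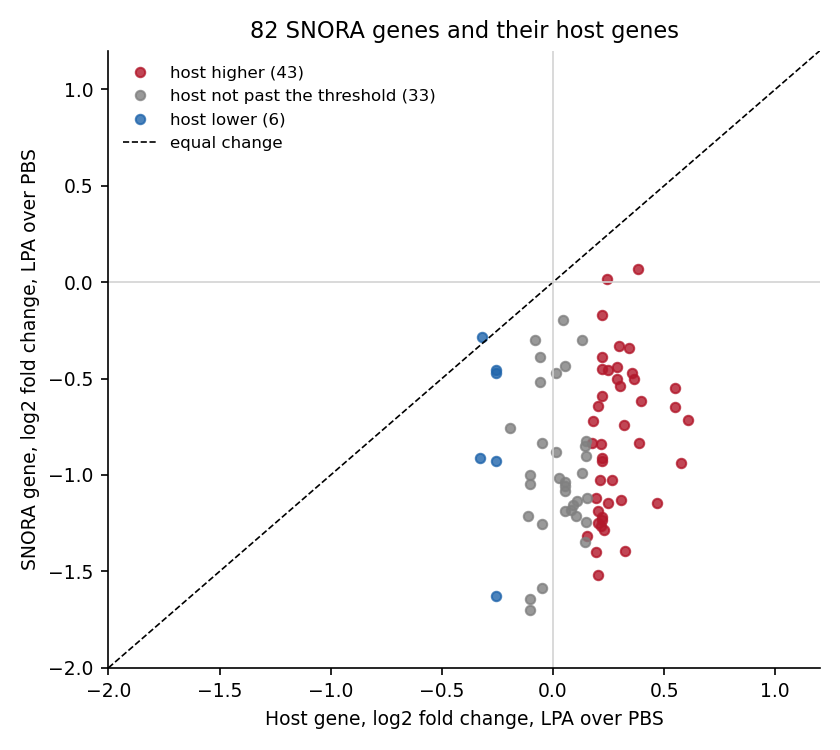
log2 fold change, LPA over PBS, of each tested SNORA gene against that of its host gene, for 82 pairs. Colours give the call of the host, and the dashed line marks equal change. All points but that of SNORA24B lie below the line, and the hosts lie near 0 while the SNORA genes reach −1.70.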

How the data were processed

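The authors deposited 1 table of FPM (CPM) with a column for each of the 24 lanes. The aligner, counting tool, strand setting and treatment of multiply matching reads were not given in the sources used here. Because mm10, a mouse build, is what the submitters' processing notes list, while the identifiers are those of human Ensembl genes, coordinates were left out. In every lane the deposited CPM values are whole multiples of 1 read: 100% came out whole within 0.02 reads, and edgeR on these reads called 3113 genes. Genes under 10 reads in total are not listed. A blank line and 187 repeated identifiers were dropped from 19345 rows.

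FPM was averaged over the 4 lanes. Genes reaching 1 FPM in 3 or more libraries were tested with limma-trend 3.58.1 (robust, two-sided, no covariate, R 4.3.3) on log2(FPM + 1), with Benjamini-Hochberg adjustment over all tested genes and a threshold of 0.05. Differences on that scale understate the change of low genes. Means over 3 libraries have limited precision, and counting limits cover counting error only. Alternatives were other pseudocounts and filters, 2 rescalings, 1 prior variance, edgeR 4.0.16, DESeq2 1.42.0, a replicate block and leaving out each library. The code was tested on simulated data. Hosts, lengths and sequences came from GENCODE release 29, in which all 113 SNORA identifiers were found. A host is the longest gene, other than a small RNA, that spans the member on its strand. Among SNORA genes, those named are the 10 with the highest mean FPM, the 10 lowest and 3 highest fold changes among called members of at least 5 FPM, and members of the guide lists. Other SNORA genes were named after their values were seen. The members and lists were chosen with earlier results of these data known.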

Additional observations from a re-analysis of the deposited data

How the results depend on the processing

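The count of SNORA members lower with LPA was 47 to 69 under every alternative, against 60 as reported, the fewest with a filter at 5 FPM, which left 53 members to test, and 0 were higher under each. It was 53 to 69 over the fits without 1 library. The share of all genes lower was computed only for the reported, unfiltered, median-of-ratios and edgeR fits. The median log2 fold change of the tested members, −0.91 as reported, was −1.02 with 0.25 FPM added, −0.61 with 4 FPM added, −1.02 with the filter at 5 FPM, −1.02 and −1.04 with median-of-ratios and upper-quartile rescaling, −1.23 with edgeR, −1.23 with DESeq2, −1.02 without PBS 2 and LPA 3 (added after seeing the data), and −1.10 to −0.80 without 1 library. Neither this median nor any SNORA member named by rule changed sign under the alternatives run. Among members near 0, SNORA75 and SNORA22B were negative on median-of-ratios rescaled FPM (−0.07 and −0.01), and SNORA50A, −0.17 as reported, was 0.12 without PBS 2.

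SNORD genes called lower, 10 as reported, were 15 with edgeR, 6 with the filter at 5 FPM and 6 to 13 without 1 library. SCARNA genes called lower, 10 as reported, were 14 with edgeR, 6 with 1 prior variance for all genes and 5 to 13 without 1 library. H/ACA pathway protein genes called higher, 9 as reported, were 3 with DESeq2 and 5 with upper-quartile rescaling. Host genes called lower, 4 as reported, were 1 with 1 prior variance, 7 with DESeq2, 8 with edgeR, 8 with median-of-ratios, 8 with upper-quartile rescaling and 0 to 5 without 1 library. Host genes called higher, 42 as reported, were 13 with 1 prior variance, 10 with DESeq2, 13 with edgeR, 14 with median-of-ratios and 13 with upper-quartile rescaling. The cause was not tested.

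Over 16274 genes, deviations of same-numbered libraries from their group means correlated at −0.01, −0.04 and −0.05. No shared effect of the number was seen, and the main fit was left unpaired. These values cannot show whether same-numbered libraries were handled as pairs, and the labels do not say. With a replicate block 67 SNORA members were lower, and the share of all genes lower there was not computed. With 3 libraries a group, and members of few reads, small differences were not detectable at this depth.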

Other observations

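SNORA50A, within CNOT1, had its 85 reads unevenly spread over lanes: 12 lanes held 0 reads and the other 12 held 5 to 13 each. The chi-square per degree of freedom of its reads over lanes was 5.42, against a median of 1.05 for the 85 members with at least 50 reads and 1.03 for all genes with at least 50 reads. SNORA50B, SNORA17B and SNORA16A followed at 2.80, 2.62 and 2.55. These members were looked at after their values were seen.

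Members of one host did not all change by the same amount. The 4 from SNHG17 ran from −1.52 to −0.64, the 3 from TAF1D from −1.59 to −0.84, the 3 from SNHG12 from −0.93 to −0.45 and the pair from CNOT1 from −0.59 to −0.17, without a test of the differences. The members from RPL27A, RPS2 and RPSA, pairs within genes of ribosomal proteins, ran from −1.24 to −0.90, −1.23 to −0.91 and −1.40 to −1.12.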
